A study of Homo sapiens with 6 samples.

Results

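A set of 10 genes that set or mark the epithelial and mesenchymal states of a carcinoma cell were followed by symbol through the deposited count and RPKM tables: SNAI2, ZEB1, ZEB2, GRHL2, ESRP1, ESRP2, CDH1, EPCAM, VIM and FN1. All 10 were among the 56303 genes of the tables. The rule for the set names genes and uses no measured value, but the set was chosen with earlier results of these data known. The cells were SW480, an established line from a human colorectal adenocarcinoma. The 3 shCtrl libraries came from SW480 cells that had received a lentiviral nonsilencing hairpin, and the 3 shMORC2 libraries from SW480 cells that had received a lentiviral hairpin against MORC2, a nuclear ATPase linked to gene silencing. The study's methods describe both as stable clonal lines selected with puromycin, and no second hairpin was analysed here. An effect of MORC2 loss, an effect of this hairpin and a difference between selected lines therefore cannot be told apart. The labels number the libraries 1 to 3 and do not state separate cultures, whereas the methods speak of replicate experiments, so p-values measure the spread between these libraries. RNA was sequenced from stranded mRNA libraries.

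In an epithelial cell, E-cadherin and EPCAM hold neighbouring cells together, GRHL2 keeps the epithelial genes active and the splicing factors ESRP1 and ESRP2 select the epithelial exons of many transcripts. In the epithelial-mesenchymal transition (EMT), repressors such as Slug (SNAI2), ZEB1 and ZEB2 bind E-box sequences and turn epithelial genes off, while vimentin and fibronectin become abundant. ZEB1 and GRHL2 repress each other, and both ZEB factors are targets of the miR-200 family. In colorectal carcinoma these programmes are often found mixed in the same cells.

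Each library held 42092664 to 43434425 counts. MORC2 (chr22:30925130-30968298, minus strand, GRCh38) had 2021, 1964 and 2007 counts in shCtrl replicates 1, 2 and 3 and 1554, 1219 and 1157 counts in the shMORC2 libraries. Every shMORC2 library stood below every shCtrl library, replicate 1 by the least, and the log2 fold change was -0.63 (edgeR adjusted p 0.000216, SE 0.10). Colorectal epithelial markers were present, with 539446 to 710243 counts of KRT8 and 26494 to 29306 of VIL1, although the intestinal factor CDX1 had at most 4 counts in a library. Of 10 such markers, 9 were tested and 4 were called (44.4%, against 39.5% of all genes tested), and calls went both ways. KRT20 and CDX2 were called higher in shMORC2 (log2 fold change 0.75 and 0.47, edgeR adjusted p 0.00305 and 0.0158). CEACAM5 and LGR5 were called lower (log2 fold change -1.08 and -1.10, edgeR adjusted p 0.00265 and 0.00647). Markers of other cell types were mixed. PTPRC had at most 6 counts, CD3E 3, DCN 2 and CDH5 2, and FAP and TEK had 0. Other genes of the same marker lists were expressed in both groups: COL1A1 had 355 to 458 counts over the 6 libraries, LUM 330 to 514, PECAM1 576 to 860, VWF 86 to 153 and CD68 1297 to 4222, and VWF and CD68 were called higher in shMORC2 (edgeR adjusted p 0.0238 and 0.000296). In both groups, replicate 1 differed more from replicates 2 and 3 than these did from each other, by a chi-square per degree of freedom of 17.3 to 23.9 against 6.83 to 9.18.

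Of the 10 genes, 6 passed the test, with 5 lower in shMORC2 (SNAI2, ZEB1, GRHL2, ESRP1 and ESRP2) and 1 higher (FN1). CDH1, EPCAM, VIM and ZEB2 did not pass. The genes that fell include EMT repressors (SNAI2 and ZEB1) and both epithelial splicing factors. The test was edgeR's quasi-likelihood test, with p-values adjusted over the 21005 genes that passed a filter on low counts, and a gene was called at an adjusted p under 0.05. By this rule 39.5% of all tested genes were called, 19.9% higher and 19.6% lower in shMORC2, so a call in itself did not set a gene apart. The 3 libraries of one group lay wholly above those of the other for 7 of the 10 genes, and for 50.2% of all genes tested. All 10 genes passed the filter, but ZEB2 and GRHL2 did so only through their counts in shCtrl, and the call of GRHL2 is given as a description. With at least 10 counts required in every library, 8 of the 10 genes were tested and 5 were called, the same as above without GRHL2.

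**Figure D1:**
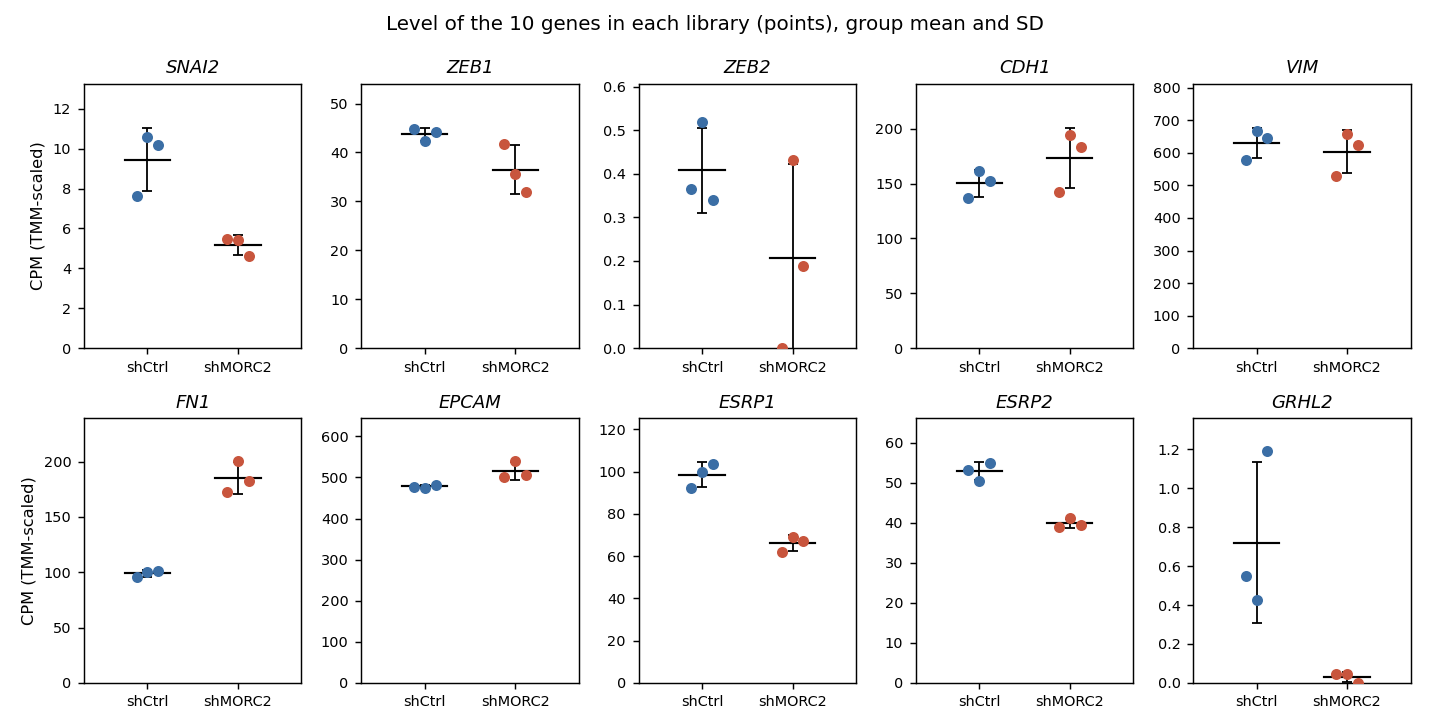
Level of each of the 10 genes in CPM (counts scaled to a common library size with TMM factors), on linear axes that start at 0. Points are libraries 1 to 3 from left to right in each group, horizontal lines are group means and bars are the SD (n = 3). The shMORC2 points lie below all shCtrl points for SNAI2, ZEB1, ESRP1, ESRP2 and GRHL2 and above them for FN1 and EPCAM.

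Slug, the zinc finger repressor encoded by SNAI2 (chr8:48917690-48921740, minus strand), had 334, 447 and 418 counts in shCtrl and 243, 226 and 196 in shMORC2. The highest shMORC2 library was below the lowest shCtrl library, and the shCtrl libraries were the more spread. In CPM the level went from 9.45 ± 1.60 to 5.17 ± 0.492 (SD, n = 3 each), and the log2 fold change was -0.87 (edgeR adjusted p 0.000401, SE 0.14). SNAI2 was called in all 15 alternatives.

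ZEB1 (chr10:31318495-31529814, plus strand), the more abundant of the ZEB repressors in these cells, had 1964, 1788 and 1816 counts in shCtrl and 1855, 1481 and 1360 in shMORC2. The raw counts of the groups overlapped, and only after scaling for library size did shMORC2 replicate 1, at 41.8 CPM, fall below the lowest shCtrl library, at 42.3 CPM. The log2 fold change was -0.26 (edgeR adjusted p 0.0436, SE 0.10). The call was kept in 6 of 15 alternatives. It was lost without TMM scaling (edgeR adjusted p 0.0539) and in 5 of the 6 fits that left out a library, and without shMORC2 replicate 3 the log2 fold change was -0.17 (edgeR adjusted p 0.211). An antisense gene, ZEB1-AS1, shares 366 exonic bases with ZEB1. It had 117 to 176 counts in shCtrl and 138 to 150 in shMORC2 and was not called (edgeR adjusted p 0.813).

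ZEB2 (chr2:144384081-144524583, minus strand) was near the limit of detection, with 16, 22 and 14 counts in shCtrl and 0, 18 and 8 in shMORC2. The groups overlapped, and shMORC2 replicate 1 held no count, which allows up to 3. The log2 fold change was -0.99 (edgeR adjusted p 0.264, SE 0.67), and it ran from -2.11 to -0.40 as single libraries were left out. Summed over libraries, 52 counts stood against 26, a ratio of shCtrl to shMORC2 of 2.02 (95% exact interval 1.24 to 3.37, counting error only), and the difference was not larger than the spread between libraries in the test. Its antisense neighbour ZEB2-AS1 had at most 3 counts in any library.

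The same comparison within a library, which needs no scaling, was made as the log2 ratio of SNAI2 to ZEB1 counts. It was -2.56, -2.00 and -2.12 in shCtrl and -2.93, -2.71 and -2.79 in shMORC2. All shMORC2 ratios were lower, by 0.59 on the log2 scale between the means, which says that SNAI2 was lower in shMORC2 relative to ZEB1. With 3 libraries against 3, the exact two-sided permutation test gave p = 0.1, the smallest p it allows, and 0.125 after adjustment over the 5 pairs of genes compared in this way.

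GRHL2 (chr8:101492432-101669726, plus strand) encodes Grainyhead-like 2, which holds epithelial enhancers open. It was scarce in SW480 cells: 24, 18 and 49 counts in shCtrl and 2, 2 and 0 in shMORC2. No shMORC2 library had more than 3 counts, the floor set for detection, while every shCtrl library had at least 18. Summed over libraries, 91 counts stood against 4, a ratio of shCtrl to shMORC2 of 23.0 after scaling for library size (95% exact interval 8.68 to 86.2, counting error only). The fitted log2 fold change was -4.41 (edgeR adjusted p 0.000287, SE 0.69), a size that depends on how a fit treats counts near 0. GRHL2 was called in the 11 alternatives that tested its counts. In limma on log2(RPKM + 1), where such low values are compressed, it was not (log2 fold change -0.15, adjusted p 0.0654). Among counts of 1 to 10 in the whole table, 68.8% were even numbers, and 2 occurred 17520 times against 6564 times for 1. If mates of a read pair were counted one by one, which was not tested, the interval above is too narrow.

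ESRP1 and ESRP2 encode the epithelial splicing regulatory proteins, which bind GU-rich RNA beside alternative exons. ESRP1 (chr8:94641074-94707466, plus strand) had 4035, 4213 and 4265 counts in shCtrl and 2743, 2880 and 2863 in shMORC2. The spread within each group was small against the gap between them, and the log2 fold change was -0.58 (edgeR adjusted p 9.85e-05, SE 0.08). ESRP2 (chr16:68229111-68238102, minus strand) had 2328, 2138 and 2260 counts in shCtrl and 1726, 1711 and 1683 in shMORC2. Its groups were also separate, with a log2 fold change of -0.41 (edgeR adjusted p 0.000868, SE 0.07). The shMORC2 level was 67.1% of the control level for ESRP1 and 75.4% for ESRP2. Both were called in all 15 alternatives.

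The log2 ratio of ESRP1 to ESRP2 counts was 0.79, 0.98 and 0.92 in shCtrl and 0.67, 0.75 and 0.77 in shMORC2, lower in every shMORC2 library. The mean difference was -0.17 on the log2 scale (exact permutation p = 0.1, the smallest allowed; adjusted p = 0.125). Neighbouring genes share exonic sequence with ESRP2. NFATC3, a transcription factor gene on the other strand, shares 149 bases and had a log2 fold change of -0.40 (edgeR adjusted p 0.000854). RP11-96D1.11 shares 35 bases on the same strand and had -0.55 (edgeR adjusted p 0.00029). Both moved with ESRP2, and the part that shared reads have in its value was not tested.

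E-cadherin, the adherens junction protein encoded by CDH1 (chr16:68737225-68835548, plus strand), had 5980, 6821 and 6277 counts in shCtrl and 6303, 8104 and 7800 in shMORC2. Replicates 2 and 3 of shMORC2 were above all shCtrl libraries, whereas shMORC2 replicate 1 lay among them. The log2 fold change was 0.21 (edgeR adjusted p 0.146, SE 0.11). With the replicate number as a block, which compares libraries of the same number, CDH1 was called higher (log2 fold change 0.20, SE 0.06, edgeR adjusted p 0.00613), in a fit that called 49.0% of all genes. It was also called without shMORC2 replicate 1 (log2 fold change 0.33, edgeR adjusted p 0.0052). RP11-354M1.2, which shares 347 exonic bases with CDH1 on the other strand, had 1285 to 1412 counts in shCtrl and 1298 to 1682 in shMORC2 (edgeR adjusted p 0.223).

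EPCAM (chr2:47345158-47387601, plus strand), the epithelial cell adhesion molecule, had 20932, 20090 and 19821 counts in shCtrl and 22185, 22463 and 21521 in shMORC2. Every shMORC2 library was above every shCtrl library, but the step was small, with a log2 fold change of 0.11 (edgeR adjusted p 0.251, SE 0.07). It was called in none of the 15 alternatives, whose log2 fold changes ran from 0.07 to 0.13. The log2 ratio of CDH1 to EPCAM differed by 0.09 between the groups and overlapped (exact permutation p = 0.6, adjusted p = 0.6).

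Vimentin, the intermediate filament of mesenchymal cells, was abundant in both groups. VIM (chr10:17228259-17237593, plus strand) had 25315, 28268 and 26522 counts in shCtrl and 23531, 27356 and 26619 in shMORC2. The groups overlapped, with a log2 fold change of -0.06 (edgeR adjusted p 0.632, SE 0.09), and no alternative called it. In both groups replicate 1 was the lowest and replicate 2 the highest. Antisense genes overlap it as well: VIM-AS1 and RP11-124N14.3 share 641 and 619 exonic bases with VIM, and VIM-AS1 had 9018 to 11080 counts in a library. How the counting treated strand was not given in the sources used here, so reads of these partners cannot be told apart from those of VIM.

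FN1 (chr2:215360440-215436172, minus strand) encodes fibronectin, a glycoprotein of the extracellular matrix. It had 4193, 4236 and 4160 counts in shCtrl and 7633, 8342 and 7754 in shMORC2, so the lowest shMORC2 library was far above the highest shCtrl library. In CPM it rose from 99.0 ± 2.92 to 185 ± 14.4 (SD, n = 3 each), by 0.90 on the log2 scale (edgeR adjusted p 2.53e-06, SE 0.08). FN1 was called in all 15 alternatives, with log2 fold changes of 0.79 to 0.95. VIM and FN1 were also compared with each other. The log2 ratio of VIM to FN1 counts was 2.59, 2.74 and 2.67 in shCtrl and 1.62, 1.71 and 1.78 in shMORC2, a difference of -0.96 (exact permutation p = 0.1, the smallest allowed; adjusted p = 0.125). The log2 ratio of CDH1 to VIM moved by 0.26, from -2.08, -2.05 and -2.08 to -1.90, -1.76 and -1.77, with no overlap (exact permutation p = 0.1; adjusted p = 0.125). The ratios ZEB1 to ZEB2 and GRHL2 to ZEB1 could not be computed, since a library held 0 counts of ZEB2 or GRHL2.

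**Figure D2:**
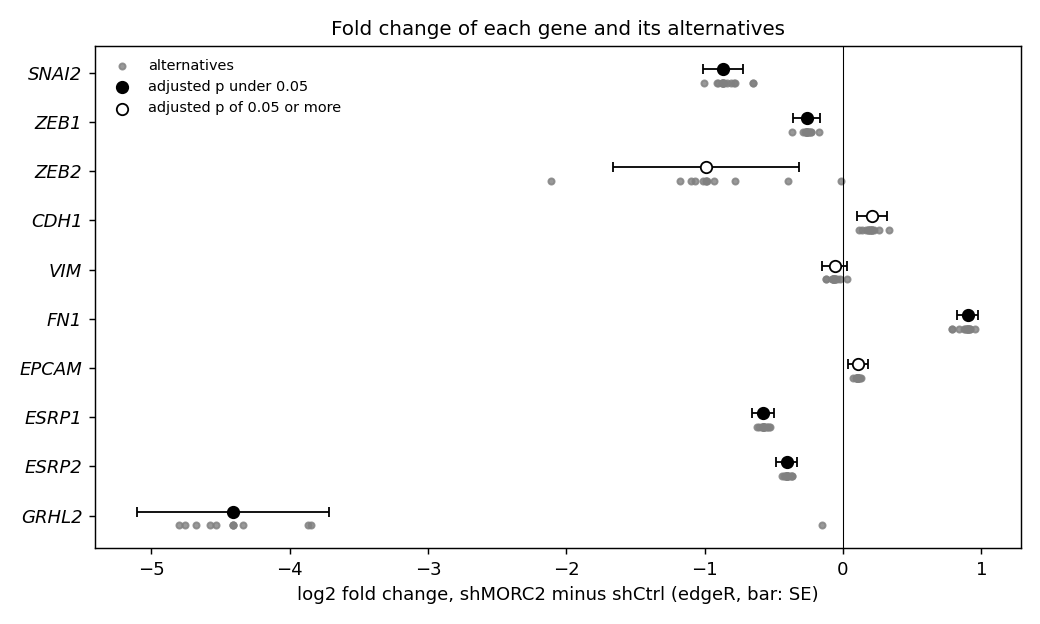
Log2 fold change of each gene, shMORC2 minus shCtrl, from edgeR (large points, bars the SE), with the values of up to 15 alternatives for each gene in grey below. Filled points passed an adjusted p under 0.05. FN1 is the only filled point above 0, and the wide scatter of ZEB2 and the single grey GRHL2 point near 0 belong to the scarcest genes.

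Levels of different genes were compared per exon length, in the RPKM values of the authors. The order in shCtrl was EPCAM, VIM, CDH1, ESRP1, ESRP2, FN1, ZEB1, SNAI2, GRHL2 and ZEB2. EPCAM had 187 to 194 RPKM and VIM 115 to 130.1 RPKM in shCtrl, so an epithelial and a mesenchymal gene headed the list together in the control cells. CDH1 had 22.6 to 26.2 RPKM, ESRP1 19.4 to 20.8 RPKM, ZEB1 4.91 to 5.31 RPKM and SNAI2 3.42 to 4.65 RPKM. No neighbours in this order overlapped within shCtrl. In shMORC2, FN1 stood above ESRP2: FN1 had 5.66 to 5.81 RPKM in shCtrl and 10.1 to 11.3 in shMORC2, and ESRP2 had 9.13 to 9.79 and then 7.02 to 7.24. GRHL2, at 0.0705 to 0.192 RPKM in shCtrl and at most 0.00777 in shMORC2, also changed places with ZEB2, but their shMORC2 values overlapped. The lengths used were 23707 exonic bases for ZEB2 and 17315 for FN1, against 2282 for SNAI2. They add up the exons of all transcripts, so RPKM is low for a gene with many exons that the cells do not use.

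**Figure D3:**
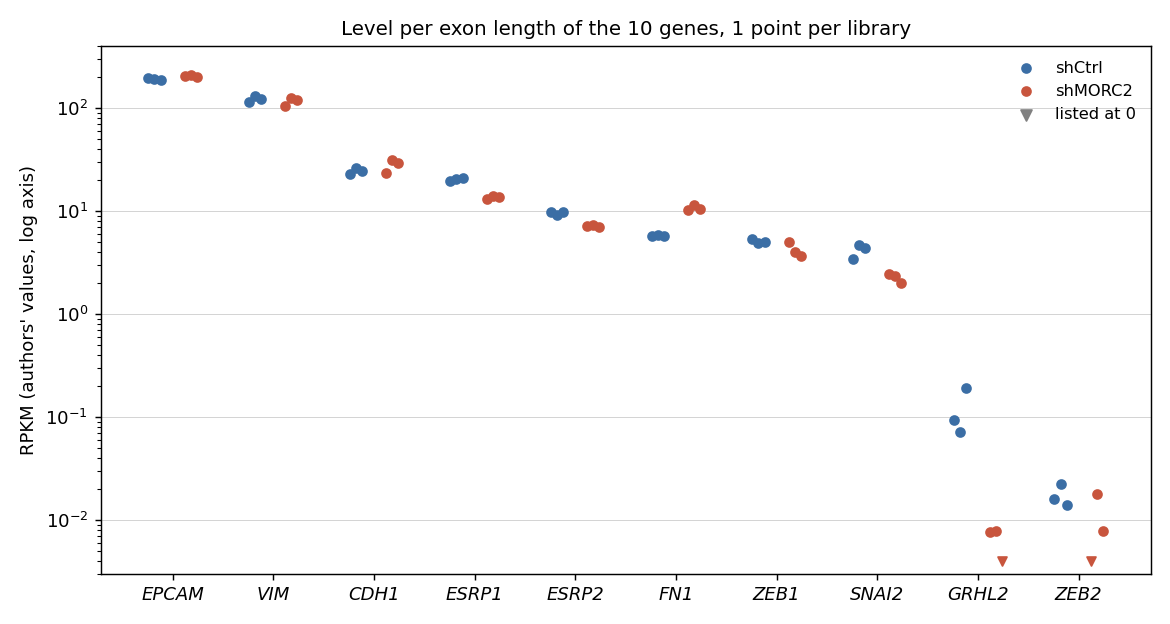
Level per exon length of the 10 genes (RPKM, the authors' values, log axis), 1 point per library, in the order of the shCtrl means. Triangles at the bottom mark libraries listed at 0. EPCAM and VIM stand highest in both groups, and FN1 passes ESRP2 in shMORC2.

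Other transcription factors of the 2 states were taken from lists. Of 16 further epithelial factors, 10 were tested, and 6 of them fell while none rose (60.0% called, 39.5% over all genes tested). The list median was -0.50 on the log2 scale, against -0.0056 over all genes tested. EHF, an ETS factor of epithelia, had 6987, 7014 and 6913 counts in shCtrl and 2995, 2864 and 2705 in shMORC2 (log2 fold change -1.30, SE 0.07, edgeR adjusted p 9.77e-08). KLF4, a factor of differentiated gut epithelium, had 396, 426 and 403 counts and then 187, 212 and 170 (-1.12, edgeR adjusted p 2.37e-05). ELF3, another epithelial ETS factor, had 2996, 5190 and 4136 counts and then 1878, 2244 and 2284 (-0.96, edgeR adjusted p 0.000522). In all 3 genes the groups were separate. FOXA2, TFCP2L1 and OVOL2 were the others that fell, at -0.67, -0.56 and -0.44. GRHL1, a paralog of GRHL2, had a log2 fold change of -0.20 and was not called (edgeR adjusted p 0.0843).

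The other EMT factors showed no common direction. Of 20 listed, 12 were tested, 3 rose and 1 fell, so 33.3% were called, against 39.5% of all genes tested. The list median was 0.016. RUNX2, a factor of bone and of invasive carcinoma, had 81, 70 and 62 counts in shCtrl and 132, 129 and 154 in shMORC2 (log2 fold change 0.95, edgeR adjusted p 0.000953). HMGA2 rose by 0.36 on the log2 scale (edgeR adjusted p 0.00734), and SOX9, a crypt factor that is also on EMT lists, fell by 0.46 (edgeR adjusted p 0.00904). SNAI1, which encodes Snail, the paralog of Slug, had 394, 575 and 574 counts in shCtrl and 349, 468 and 421 in shMORC2. Its groups overlapped and its log2 fold change of -0.33 did not pass (edgeR adjusted p 0.130). TWIST1 never exceeded 2 counts and was not tested.

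Cell surface genes of the epithelial state moved both ways. Of 30 adherens junction and epithelial surface genes, 27 were tested, 3 rose and 7 fell. The share called, 37.0%, was near the 39.5% of all genes tested, and the list median was -0.021. RAB25, 1 of the 7 that fell, had 25, 22 and 22 counts in shCtrl and 12, 7 and 11 in shMORC2. It passed the filter on low counts only through shCtrl, and its call is given as a description. CD24, a surface glycoprotein, rose by 1.25 on the log2 scale (1399 to 1657 counts in shCtrl, 3645 to 3835 in shMORC2), and CDH3, which encodes P-cadherin, by 1.10 (1212 to 1483 and 2676 to 2949 counts). DSC2, a desmosomal cadherin, rose by 0.33. The edgeR adjusted p was 3.31e-07 for CD24, 3.36e-06 for CDH3 and 0.0284 for DSC2. PKP3, a plakophilin of desmosomes, fell by 0.68, ST14, a membrane serine protease, by 0.61 and MYO5B, a motor of apical transport, by 0.59. Their edgeR adjusted p was 1.88e-05, 0.00309 and 0.000162.

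Genes of the mesenchymal state other than VIM and FN1 came from a list of 35. Of these, 24 were tested, 11 rose and 2 fell (54.2% called, against 39.5% of all genes tested), with a list median of 0.28. MYL9, a myosin light chain of contractile cells, had 1004, 1013 and 996 counts in shCtrl and 2860, 3292 and 3454 in shMORC2 (log2 fold change 1.66, SE 0.09, edgeR adjusted p 1.21e-07). S100A4, a calcium-binding protein, rose by 0.93 and EMP3, a membrane protein, by 0.59 (edgeR adjusted p 3.82e-06 and 0.00193). TIMP3, an inhibitor of metalloproteinases, fell by 0.66 (edgeR adjusted p 0.00266). CDH2, which encodes N-cadherin and is named here after its values were seen, had 4, 6 and 10 counts in shCtrl and 0 in all 3 shMORC2 libraries, too few to be tested. Fibroblast markers, some of which are on the mesenchymal list, summed to 20.01 to 20.9 CPM in shCtrl and 23.5 to 25.8 in shMORC2. Of 8 such markers, 4 were tested and 1 was called (THY1), FAP had 0 counts and DCN no more than 2. THY1, also 1 of the 11 mesenchymal genes that rose, had 0, 4 and 0 counts in shCtrl and 14, 36 and 34 in shMORC2. It passed the filter on low counts only through shMORC2, and its call is given as a description. Leukocyte markers summed to 30.2 to 39.0 and 50.5 to 102 CPM, nearly all from CD68, which had 1297 to 1595 counts and then 2198 to 4222. Endothelial markers summed to 15.7 to 19.6 and 20.6 to 22.3 CPM. The part of these in the mesenchymal list was not tested.

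**Figure D4:**
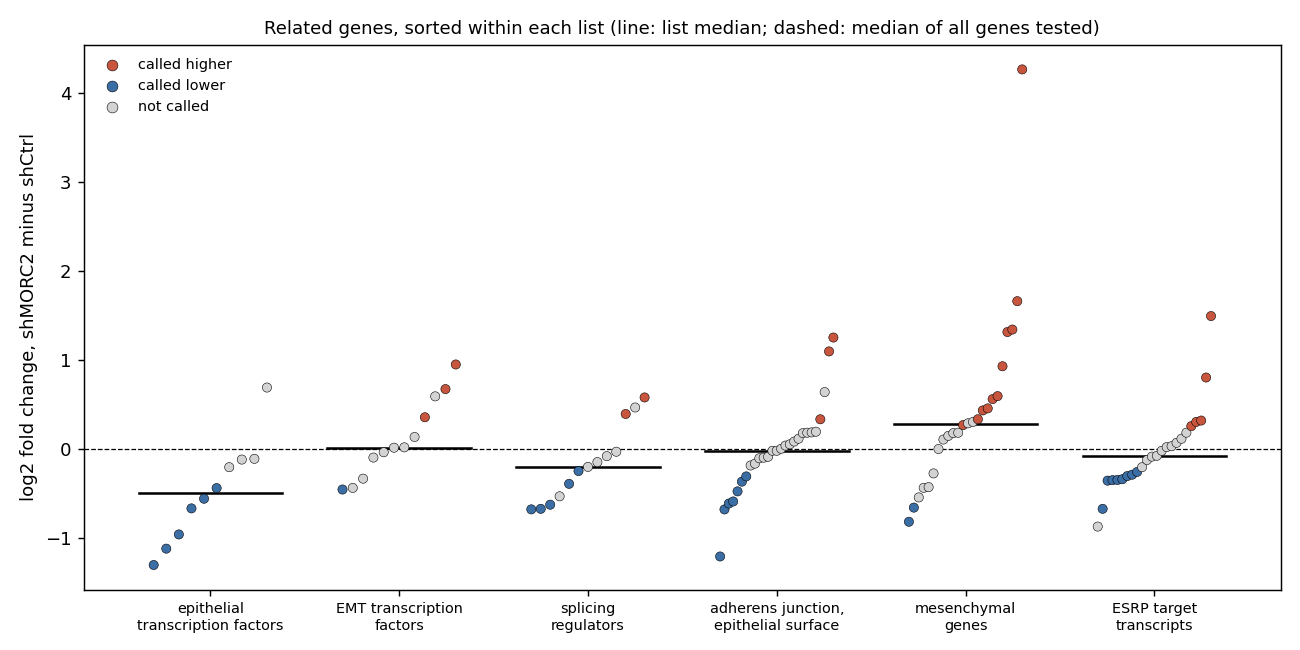
Log2 fold change (shMORC2 minus shCtrl) of the tested genes of 6 lists, sorted within each list, with red for called higher, blue for called lower and grey for not called. Solid lines are list medians and the dashed line is the median of all genes tested. No epithelial transcription factor is red, and 11 of the 24 mesenchymal genes are.

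The miR-200 family pairs with sites in the ZEB1 and ZEB2 transcripts. Its 5 mature members, shown because the seed decides which sites they match, fall into 2 groups (RefSeq, GRCh38.p14, written 5′ to 3′ with the seed, bases 2 to 8, in capitals).
hsa-miR-141-3p: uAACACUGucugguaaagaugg
hsa-miR-200a-3p: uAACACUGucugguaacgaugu
hsa-miR-200b-3p: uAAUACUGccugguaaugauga
hsa-miR-200c-3p: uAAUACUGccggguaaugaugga
hsa-miR-429: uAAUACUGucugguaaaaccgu
miR-141 and miR-200c lie together on chromosome 12 and the other members on chromosome 1, so each cluster holds both seeds. Mature miRNAs were not measured, and counts at these loci are RNA-seq reads on their precursors.

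Of 8 listed loci, 7 were in the tables and 5 were tested. Of these 5, 2 were called, a share near the 39.5% of all genes tested, and both are in the chromosome 12 cluster. MIR141 had 16, 11 and 8 counts in shCtrl and 27, 49 and 35 in shMORC2 (log2 fold change 1.65, SE 0.38, edgeR adjusted p 0.00407). It passed the filter on low counts only through its shMORC2 libraries, so its call is given as a description. U47924.27, listed by RefSeq as MIR200CHG, the host gene of this cluster, had 45, 68 and 35 counts and then 111, 122 and 105 (1.18, SE 0.24, edgeR adjusted p 0.00158). In both the groups were separate, at counts low enough that 1 library matters. MIR200C itself had at most 2 counts. On chromosome 1, MIR200A had 20, 23 and 12 counts in shCtrl and 9, 14 and 3 in shMORC2, which overlapped and did not pass (-1.08, edgeR adjusted p 0.106), and MIR429 had 41 to 45 and 28 to 40 counts (edgeR adjusted p 0.429).

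Other splicing regulators of the 2 states were compared beside ESRP1 and ESRP2. Of 14 listed, 13 were tested, 5 fell and 2 rose (53.8% called, against 39.5% of all genes tested), with a list median of -0.20. MBNL2 and MBNL1, muscleblind proteins, fell by 0.68 and 0.67 on the log2 scale (edgeR adjusted p 0.000102 and 6.58e-05), and RBFOX2, which selects mesenchymal exons, fell by 0.63 (edgeR adjusted p 2.49e-05). RBM47 and CELF1 were also lower, at -0.39 and -0.25. HNRNPM, which competes with ESRP1 at some exons, rose by 0.58 and QKI, a promoter of mesenchymal splicing, by 0.39 (edgeR adjusted p 0.000643 and 0.00525).

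Transcripts with exons known to respond to the ESRP proteins were then looked up in the authors' splicing table, which lists 1449 events in 1181 genes from a comparison of a group 1 with a group 2 of 3 libraries each. The table does not say which group is shMORC2, so no direction after knockdown is given. It lists no event whose mean inclusion levels differ by less than 0.0997, so a difference between the groups is a property of the list and carries no test here. An inclusion level is the share of transcripts that keep the exon. Of 24 such ESRP target transcripts, 7 had an event in the table (29.2%), as did 5.62% of all genes tested. Well-counted genes have more events: among those averaging 1000 counts or more, 9.96% had one, and 18 of the 24 targets, including these 7, were of that kind. The share of genes with an event therefore depends on depth as well as on the list. As whole genes, 5 of the 24 targets rose and 8 fell, which is 54.2% called against 39.5% of all genes tested. The 39.5% was not matched for depth, here or for the other lists. FGFR2, 1 of the 5 that rose, had 2, 18 and 10 counts in shCtrl and 24, 40 and 22 in shMORC2. It passed the filter on low counts only through shMORC2, and its call is given as a description. CD44, a hyaluronan receptor with many variable exons, rose by 0.80 (275 to 391 counts in shCtrl, 546 to 638 in shMORC2, edgeR adjusted p 0.00031).

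The 7 targets held 8 events, and ESRP1 held 1. The groups did not overlap in 7 of these 9, and in 59.8% of all events listed. The 2 exons that follow are shown because they had many reads, are coding exons and belong to transcripts of the ESRP list. They are given 5′ to 3′ on the transcribed strand of GRCh38, with the exon in capitals and 20 bases of intron on either side in lower case.
ENAH, chr1:225504971-225505073, minus strand: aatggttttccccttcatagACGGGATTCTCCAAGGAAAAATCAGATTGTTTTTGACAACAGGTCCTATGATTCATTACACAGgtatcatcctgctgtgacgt
APLP2, chr11:130123592-130123799, plus strand: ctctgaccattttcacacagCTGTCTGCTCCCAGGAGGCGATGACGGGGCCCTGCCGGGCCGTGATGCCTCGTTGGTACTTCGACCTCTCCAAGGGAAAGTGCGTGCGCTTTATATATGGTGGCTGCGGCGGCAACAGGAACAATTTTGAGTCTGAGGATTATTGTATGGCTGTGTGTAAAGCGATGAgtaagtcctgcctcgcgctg
ENAH encodes the actin regulator Mena. Its exon of 63 bases (chr1:225504991-225505053) had inclusion levels of 0.218, 0.146 and 0.207 in group 1 and 0.362, 0.365 and 0.334 in group 2, from 163 to 222 reads in a library. APLP2 encodes a relative of the amyloid precursor protein. Its exon of 168 bases (chr11:130123612-130123779) had 0.296, 0.321 and 0.306 in group 1 and 0.455, 0.47 and 0.466 in group 2, from 978 to 1229 reads. In both, every group 2 library kept the exon more often than every group 1 library.

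ITGA6, which encodes the laminin receptor subunit integrin alpha 6, had an event at an exon of 130 bases with levels of 0.37 to 0.459 in group 1 and 0.537 to 0.559 in group 2, from 488 to 716 reads. SCRIB, a polarity gene, had the opposite order at an exon of 63 bases, with 0.567 to 0.62 in group 1 and 0.372 to 0.39 in group 2, from 78 to 137 reads. The other events rested on fewer reads. ARHGEF11 and TCF7L2, the latter with 2 events at the same exon, had 7 to 48 reads in a library, and a mutually exclusive pair in EPB41L5 had 36 to 55. The 2 TCF7L2 events went opposite ways. Mean levels in groups 1 and 2 were 0.261 and 0.125 in the first. They were 0.802 and 0.937 in the second, where the groups overlapped. ESRP1 had 1 event, at an exon of 110 bases, with 0.52, 0.419 and 0.487 in group 1 and 0.802, 0.684 and 0.603 in group 2. It rested on 11 to 20 reads, although ESRP1 itself had at least 2743 counts in a library. The other 9 genes of the set had no event in the table.

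**Figure D5:**
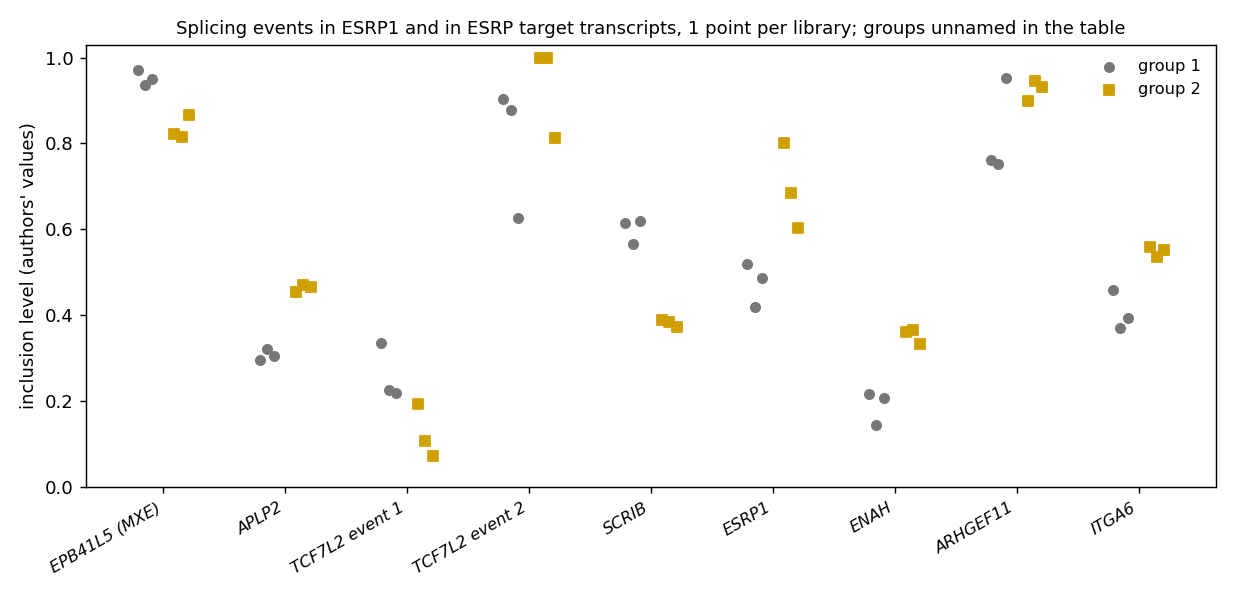
Inclusion level (share of transcripts with the exon, the authors' values, axis from 0) of the 9 listed events in ESRP1 and in ESRP target transcripts, 1 point per library. Circles are group 1 and squares group 2, which the table does not name, and MXE marks a mutually exclusive pair. ENAH, APLP2, ITGA6 and ESRP1 have higher levels in group 2, and SCRIB, EPB41L5 and the first TCF7L2 event in group 1. In ARHGEF11 and the second TCF7L2 event the groups overlap, with the higher mean in group 2.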

How the data were processed

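Stranded mRNA libraries of 3 shCtrl and 3 shMORC2 samples were analysed. Raw counts per gene were deposited by the authors in the layout of featureCounts. The submitters' processing notes name Trimmomatic 0.36, STAR 2.5.3a, Subread 1.5.1, edgeR 3.12.1 and GRCh38. The annotation release, the strand setting and whether molecular identifiers were collapsed were not given in the sources used here. RPKM values were deposited by the authors and equalled the counts divided by exon length and library total, to within a relative 9.26e-14. The deposited rMATS table gives inclusion levels (a fraction) and junction read counts by the authors for 2 unnamed groups. Its columns of differences, p-values and adjusted p-values were the authors' own comparison and were not used, and nor was a summary of event numbers. Columns of samples outside the series numbered 0.

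Genes kept by filterByExpr were scaled by TMM and fitted in edgeR 4.0.16 (R 4.3.3), whose quasi-likelihood test had no covariate beside the group. The p-values of 21005 genes were adjusted by Benjamini-Hochberg. The SE is the log2 fold change divided by the square root of F. Counts of 20969 genes were simulated with 100 genes changed by 0.5 and 100 by 1 on the log2 scale, and no others. The test recovered 41.0% and 88.0% of them. In the data 39.5% of genes were called, so the adjustment was stricter in the simulation. These shares therefore do not give the recovery in the data. Ratios of 2 genes were compared by an exact permutation test (scipy 1.17.1), adjusted over the 5 of 7 pairs without a 0. Alternatives were DESeq2 1.42.0, other scaling and filters, the replicate number as a block, limma 3.58.1 on log2(RPKM + 1) and log2(RPKM + 0.1), and leaving out each library. DESeq2 gave no adjusted p for 14487 genes.

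The 10 genes and the lists were chosen with earlier results of these data known. From each list the text names the 3 highest and 3 lowest called genes averaging 100 counts or more, genes that overlap one of the 10, and all listed splicing events; 2 genes this rule names are not reported here. Others, among them FOXA2, TFCP2L1, OVOL2, GRHL1, SNAI1, TWIST1, RAB25, CDH2, THY1, RBM47, CELF1, FGFR2 and the miR-200 loci, were chosen with their values seen. Of the listed symbols, AFDN and MIR200CHG were matched through RefSeq synonyms, and TBXT and MIR205 were not matched. Libraries of the same number deviated together from their group means, with correlations of 0.333, 0.165 and 0.149 for replicates 1, 2 and 3. Libraries of unlike number had -0.255 to 0.121, the highest for shCtrl replicate 3 with shMORC2 replicate 2. Libraries of the same number were treated as pairs only in the replicate block, on the values alone, since no label says what a number stands for. No 2 libraries of a group agreed within sampling noise. Floors (3 counts) and intervals cover counting error only.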

Additional observations from a re-analysis of the deposited data

How the results depend on the processing

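SNAI2, FN1, ESRP1 and ESRP2 were called in every alternative, and between 4 and 7 of the 10 genes were called across them, with 5 to 7 as single libraries were left out. The replicate block added CDH1 (log2 fold change 0.20) and changed no other call among the 10 genes. The log2 fold change of VIM, which was not called, ran from -0.12 to 0.027 as single libraries were left out and was above 0 without shMORC2 replicate 1. That of ZEB1-AS1, also not called, ran from -0.20 to 0.055 and was above 0 without shCtrl replicate 1. In limma on log2(RPKM + 1) without a filter, 5454 genes were called in all, with 1 of the other EMT factors and 6 of the ESRP target transcripts. The ESRP target count ran from 8 to 14 as single libraries were left out, with 8 without shMORC2 replicate 3. Only 1 miR-200 locus was called at a minimum of 10 counts in every library, a filter that MIR141, GRHL2 and ZEB2 did not pass. For the 10 genes, 131 values kept direction and call, 10 lost a call and 2 gained one. The causes of these changes were not tested. Counts of ZEB2, GRHL2 and several miR-200 loci were low, with at most 49 for ZEB2 and GRHL2. No permutation test of 3 libraries against 3 can go below 0.1.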
